A study of Mus musculus with 12 samples.

Results

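The genes described here are those that carry sterol out of liver cells and the nuclear receptors that control them: Abca1, Abcg1, Abcg5, Abcg8, Nr1h3, Nr1h2 and Mylip. Every probe that the platform's annotation paired with 1 of these symbols was taken, whatever its values. Of the 7 genes, 6 had a probe, out of 19084 genes named on the array, and they are described by 8 of its 26423 probes. Abcg1 and Mylip had 2 probes each, and Nr1h2 is not analysed here for want of a probe paired with its symbol. In each pair the probe with the higher mean is called the brighter one.

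RNA was measured in whole liver of male C57BL/6 mice on 12 single-colour arrays, 3 for each of 4 groups, in a study of a citrus flavonoid preparation called PTFC in diet-induced fatty liver. ND mice ate a normal diet with 12.3% fat, 21.5% protein and 66.2% carbohydrate for 24 weeks. HFD16 and HFD24 mice ate a high-fat diet for 16 or 24 weeks, which held 36.1% fat, 21.6% protein and 42.3% carbohydrate and to which 10% lard, 2% cholesterol, 5% egg yolk powder and 0.25% bile salt had been added. PTFC mice ate the same high-fat diet for 24 weeks and, after the first 6 weeks, received 50 mg per kg of PTFC into the stomach daily for 18 weeks. The other groups were given saline. Each group held 6 mice, all fasted for 12 hours before collection. HFD24 and PTFC mice were 31 to 33 weeks old at collection, ND mice 30 to 33 weeks and HFD16 mice 23 to 25 weeks, so diet length and age cannot be told apart where HFD16 is compared. The high-fat diet also carried cholesterol and bile salt, so fat and sterol intake cannot be told apart either. The labels do not say that each array came from a separate mouse, so the spread behind the p-values is that of these arrays and could be technical.

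Liver X receptors (LXRs) are nuclear receptors that bind oxysterols, oxidised products of cholesterol, and work on DNA as a pair with a retinoid X receptor. Nr1h3 encodes LXR alpha, abundant in liver, and Nr1h2 encodes LXR beta, made in most tissues. Their known target genes move sterol away from the cell: ABCA1 loads it onto lipid-poor apolipoprotein A-I, ABCG1 onto HDL particles, and ABCG5 with ABCG8, which work only as a heterodimer, passes it from hepatocytes into bile. Mylip, also called Idol, is an LXR target of another kind, a ubiquitin ligase that marks the LDL receptor for degradation and so limits sterol uptake.

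The promoters of these genes are shown for 2 features, an LXR repeat and the interval shared by Abcg5 and Abcg8. Their part in the levels below was not tested. RefSeq promoter windows on GRCm38.p6, each running from 250 bases before a transcript start to the first bases of the transcript and 300 bases long, were found for 6 of the 7 genes, Abcg1 being the exception. The motifs were chosen with these sequences in view and searched on both strands. The LXR pair binds a direct repeat of a hexamer with 4 free bases between the copies. Its strict form, with AGGTCA as both copies, was found in 0.0152% of 32817 windows and in none of these genes. A looser form, with NGGTNA as both copies and N for any base, occurred in 0.719% of the windows and, among these genes, in the Abca1 window only. The 250 bases before the Abca1 start, on chromosome 4 and read on the minus strand (chr4:53159896-53160145), carry it 67 bases before the start on the opposite strand, shown in capitals.
Abca1 promoter: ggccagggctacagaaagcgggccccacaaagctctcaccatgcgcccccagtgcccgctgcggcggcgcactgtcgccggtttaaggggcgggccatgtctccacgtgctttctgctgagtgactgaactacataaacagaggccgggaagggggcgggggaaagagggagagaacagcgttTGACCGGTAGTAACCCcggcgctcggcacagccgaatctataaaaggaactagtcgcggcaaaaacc

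Abcg5 and Abcg8 lie head to head on chromosome 17, and the whole interval between a start of each is 109 bases (chr17:84683012-84683120, plus strand, the Abcg5 start on the left and the Abcg8 start on the right). AGATAA, the box bound by GATA factors, is in capitals there, in its reverse form TTATCT, at 2 places. The 300-base windows of both genes overlap, and the same 3 matches were counted in each, so they are not separate finds. That number was reached by 0.107% of all windows, while 11.2% held at least 1. The motif was chosen with these sequences in view, so this share does not measure chance. A second, more distant window listed for Abcg8 held none. A match is a description of letters and shows neither a bound site nor a cause.
Abcg5-Abcg8 interval: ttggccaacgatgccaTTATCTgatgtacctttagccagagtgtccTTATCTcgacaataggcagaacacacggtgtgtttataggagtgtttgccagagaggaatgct

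The high-fat diet was accompanied by higher signal of all 4 sterol transporters, with no detectable shift in the receptor Nr1h3. After 24 weeks Abcg1 was 6.10-fold higher than in ND, Abcg5 1.98-fold, Abcg8 1.82-fold and Abca1 1.43-fold. With PTFC on the same diet, Abcg1 was 1.94-fold lower than in HFD24 and stayed above ND, whereas the differences of the other transporters from HFD24 did not pass. Counts below are of probes that passed limma at a Benjamini-Hochberg adjusted p under 0.05 over all 26423 probes. In HFD24 against ND 6 of the 8 probes, of 5 genes, were higher and none lower, where 8.5% of all probes were higher and 7.96% lower. For 5 of the 8 all 3 HFD24 arrays lay above all 3 ND arrays after normalization, as for 13.9% of all probes. In HFD16 against ND 6 of 8 were higher and none lower, against 8.64% and 7.69% of all probes, and 6 of 8 had all HFD16 arrays above all ND arrays, as did 15.1% of all probes. Both HFD16 counts include the dimmer Mylip probe, which is near the floor, while the brighter Mylip probe did not pass there (limma adjusted p = 0.289). The medians below also take in the dimmer Mylip probe. In PTFC against HFD24 none was higher and 2, both of Abcg1, were lower, against 3.07% and 2.71%. For 4 of the 8 all PTFC arrays lay below all HFD24 arrays, as for 14.1% of all probes. The median difference over the 8 probes was 0.98 on the log2 scale for HFD24 against ND, 1.12 for HFD16 against ND and -0.26 for PTFC against HFD24, where the medians over all probes were -0.07, -0.05 and 0.02. These comparisons share arrays and are not independent of each other.

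**Figure D1:**
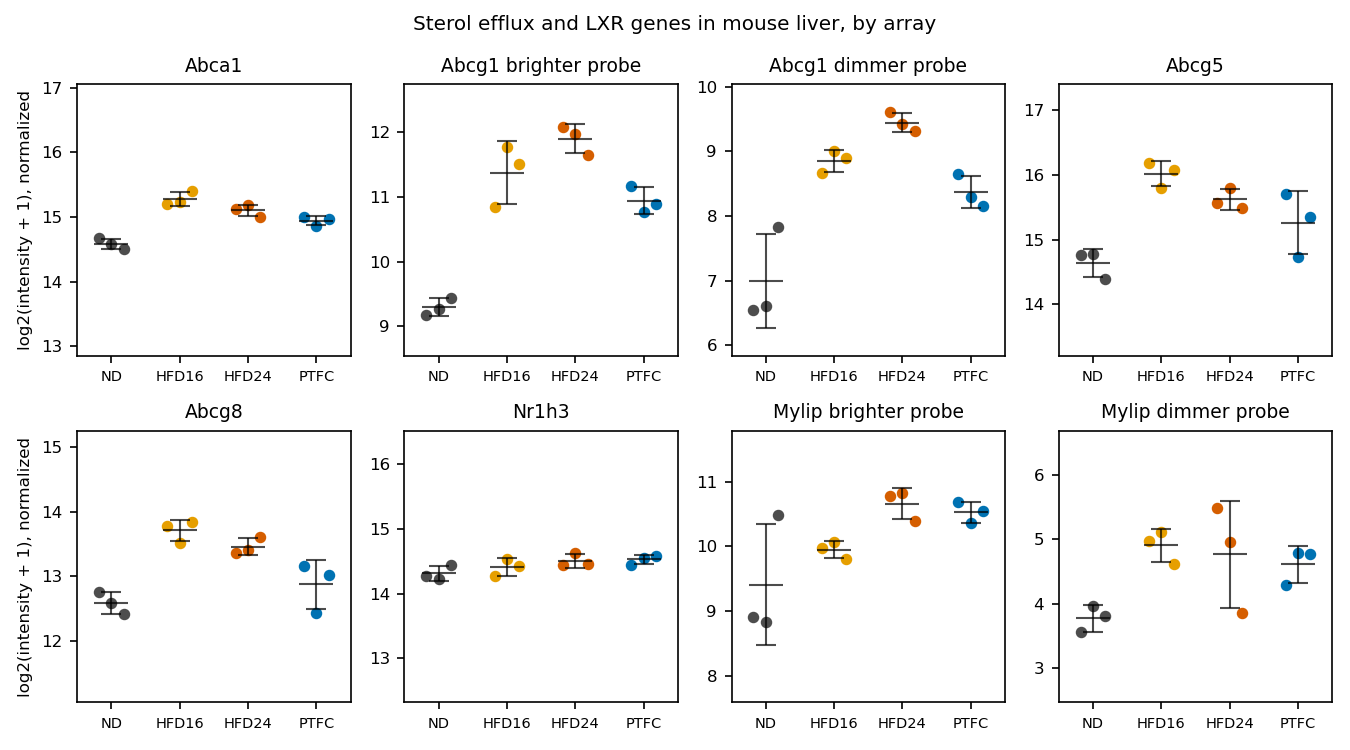
Normalized log2(intensity + 1) of each of the 8 probes (vertical axes, each panel with its own range) in the 4 groups; each point is 1 array, the long bar the mean and the whiskers 1 SD of 3 arrays. All HFD16, HFD24 and PTFC arrays lie above the ND arrays for Abca1 and for both Abcg1 probes, the Nr1h3 points lie at 1 height, and 1 ND array stands high for the brighter Mylip probe.

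Array medians of the deposited intensity lay between 249 and 408, and no detection flag was used here. Of the 8 probes only the dimmer Mylip probe fell among the dimmest 25% of all probes, those with a mean under 6.24 on the log2 scale. The hepatocyte markers Alb, the albumin gene, and Hnf4a, a hepatocyte transcription factor, were measured well above that in all groups, with median intensities of 406928 and 128597 in ND and of 407318 and 101797 in HFD24. The split between higher and lower probes depends on the scaling: 51.7% of the probes called in HFD24 against ND were higher after quantile normalization and 35.6% on the scale as deposited, and for PTFC against HFD24 these shares were 53.1% and 92.4%. On the deposited scale the median of all probes was -0.28 in HFD24 against ND and 0.30 in PTFC against HFD24. Differences below are after quantile normalization, as log2(intensity + 1) with their standard error (SE), and intensities are as deposited.

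Nr1h3, which encodes LXR alpha, was nearly level over the groups. Its intensity was 19974, 19397 and 22242 on the ND arrays, 19434, 23646 and 21771 on the HFD16 arrays, 21238, 24745 and 22511 on the HFD24 arrays, and 22237, 25399 and 25739 on the PTFC arrays. The groups overlapped in deposited intensity, PTFC with ND by a narrow margin, and after normalization all PTFC arrays lay just above all ND arrays. HFD24 differed from ND by 0.20 ± 0.13 (SE), with a 95% interval from -0.09 to 0.48 and a limma adjusted p = 0.33. PTFC differed from HFD24 by 0.02 ± 0.13, with an interval from -0.26 to 0.30 (adjusted p = 0.946), and that difference turned to -0.27 under median centring, also not past the test. PTFC differed from ND by 0.22 ± 0.13, with an interval from -0.07 to 0.50 (adjusted p = 0.483). The F test over the 4 groups gave an adjusted p = 0.504, where 19.6% of all probes passed. Equal levels are not shown by this, since the intervals reach the bounds given.

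Abca1, the transporter that starts the formation of HDL, had the smallest differences of the 4 transporters in HFD16 and in HFD24 against ND. Its intensity was 26490, 24618 and 23268 in ND, 37082, 37553 and 42632 in HFD16, 34053, 35915 and 32077 in HFD24, and 32701, 31552 and 33607 in PTFC. Every array on the high-fat diet lay above every ND array. HFD16 exceeded ND by 0.69 ± 0.12, a 1.62-fold difference (limma adjusted p = 0.00375), and HFD24 exceeded ND by 0.52 ± 0.12 (adjusted p = 0.0107). Both held under all 21 other settings and left-out arrays that were run. HFD24 lay below HFD16 on all 3 arrays, but the difference of -0.17 ± 0.12 did not pass (adjusted p = 0.648). PTFC differed from HFD24 by -0.16 ± 0.12, with a 95% interval from -0.42 to 0.10 (adjusted p = 0.442), and these groups overlapped in deposited intensity but not after normalization. PTFC lay above ND by 0.36 ± 0.12, not past the test at an adjusted p = 0.148, where 0.727% of all probes were higher and 1.03% lower.

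Abcg1, which passes sterol to HDL and is known for its high level in macrophages, had the largest differences among these genes. The brighter probe read 627, 670 and 624 in ND, 1682, 3712 and 2845 in HFD16, 4058, 3931 and 3371 in HFD24, and 2363, 1841 and 2036 in PTFC. The ND arrays were close to each other, the HFD16 arrays spread widely, and the PTFC arrays lay wholly between ND and HFD24. The dimmer probe read 114.2, 117.0 and 203.9 in ND, 343, 515 and 416 in HFD16, 647, 690 and 650 in HFD24, and 478, 348 and 350 in PTFC. Both probes gave the same order of group means in deposited intensity, which was ND, PTFC, HFD16 and HFD24, with HFD16 and PTFC overlapping. HFD24 exceeded ND by 2.61 ± 0.23 on the brighter probe (limma adjusted p = 8.15e-05) and by 2.45 ± 0.28 on the dimmer one (adjusted p = 0.000348). HFD16 exceeded ND by 2.08 ± 0.23, or 4.23-fold, and by 1.86 ± 0.28, or 3.63-fold, with adjusted p = 0.00047 and 0.00227; the dimmer probe's call was lost with each array's scaling step, which was largest in ND, as a covariate (1.61, adjusted p = 0.0878). The further differences of 0.53 and 0.59 between HFD24 and HFD16 did not pass (adjusted p = 0.487 and 0.524).

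With PTFC, Abcg1 fell relative to HFD24 by 0.96 ± 0.23 on the brighter probe, with a 95% interval from -1.45 to -0.47 (limma adjusted p = 0.0324), and by 1.07 ± 0.28 on the dimmer probe, a 2.11-fold difference (adjusted p = 0.0438). All 3 PTFC arrays were below all 3 HFD24 arrays on both probes, a separation that, as said, 14.1% of all probes showed in this direction. The call rested on single arrays. The brighter probe no longer passed without HFD24 replicate 1 (-0.87, adjusted p = 0.115), HFD24 replicate 2 (-0.93, 0.0824), PTFC replicate 2 (-0.87, 0.0888) or PTFC replicate 3 (-0.94, 0.148), though its size hardly moved. The dimmer probe no longer passed without any 1 of the HFD24 or PTFC arrays or without HFD16 replicate 3, with adjusted p between 0.0573 and 0.192, nor on the deposited scale (-0.77, 0.0544) or without a trend in the prior variance (0.0540). Without PTFC replicate 3 only 8 of all 26423 probes passed in this comparison, against 1528 with it. PTFC remained above ND by 1.65 ± 0.23, or 3.14-fold, on the brighter probe (adjusted p = 0.00437) and by 1.38 ± 0.28 on the dimmer one (adjusted p = 0.0304). With the scaling step as a covariate neither probe passed (1.42 and 1.16, adjusted p = 0.0906 and 0.233). The dimmer probe's difference from ND lost its call without ND replicate 1 or 2 or any 1 PTFC array, with adjusted p between 0.0756 and 0.140, and in a fit of these 2 groups only (0.0579).

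**Figure D2:**
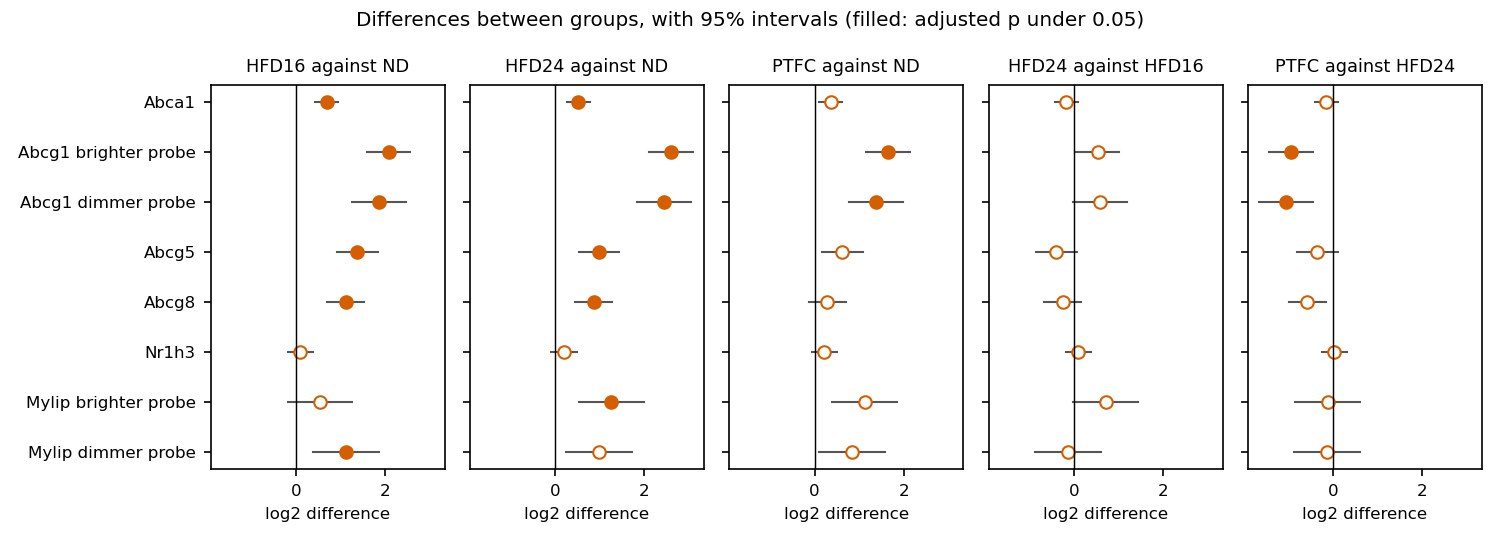
Differences of log2(intensity + 1) between groups for the 8 probes (rows) in the 5 comparisons (panels), with 95% intervals from limma; filled points have an adjusted p under 0.05. Abcg1 is filled in 4 of the panels, Abca1, Abcg5 and Abcg8 in the comparisons of HFD16 and HFD24 with ND, and Nr1h3 in none.

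Abcg5 and Abcg8, the 2 subunits of the biliary sterol pump, were both higher in HFD16 and HFD24 than in ND. Abcg5 read 28188, 28276 and 21189 in ND, 70492, 58077 and 64558 in HFD16, 46146, 53545 and 44114 in HFD24, and 53210, 28764 and 43394 in PTFC. Abcg8 read 6979, 6231 and 5392 in ND, 13682, 12071 and 14379 in HFD16, 9896, 10576 and 12719 in HFD24, and 9057, 5889 and 8552 in PTFC. For both genes HFD16 and HFD24 lay wholly above ND, and PTFC replicate 2 was the lowest PTFC array, near the ND level. Within HFD24 the genes ran apart, replicate 3 being the lowest array for Abcg5 and the highest for Abcg8. HFD16 exceeded ND by 1.38 ± 0.21 for Abcg5 and by 1.12 ± 0.19 for Abcg8, which are 2.60-fold and 2.17-fold differences (limma adjusted p = 0.00232 and 0.00387). HFD24 exceeded ND by 0.98 ± 0.21 and 0.87 ± 0.19 (adjusted p = 0.00777 and 0.0093), and the calls of both genes in both comparisons held under all 21 alternatives. Abcg5 was highest in HFD16, yet its difference of -0.40 ± 0.21 from HFD16 to HFD24 did not pass (adjusted p = 0.564), nor did that of Abcg8, -0.25 ± 0.19 (adjusted p = 0.685).

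With PTFC, Abcg8 differed from HFD24 by -0.58 ± 0.19, with a 95% interval from -1.0 to -0.17. It missed the threshold (limma adjusted p = 0.0868) although all 3 PTFC arrays lay below all 3 HFD24 arrays, and it passed under median centring (-0.88, adjusted p = 0.0254). Abcg5 differed by -0.36 ± 0.21, with an interval from -0.82 to 0.10 (adjusted p = 0.323) and overlapping arrays. Without PTFC replicate 2 these differences were -0.37 for Abcg8 (adjusted p = 0.259) and -0.10 for Abcg5 (adjusted p = 0.813). Against ND, PTFC stood at 0.62 ± 0.21 for Abcg5 (adjusted p = 0.159) and at 0.28 ± 0.19 for Abcg8 (adjusted p = 0.551). For these 2 genes PTFC was thus not separated by the test from either ND or HFD24.

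Within arrays, the changes of partner genes were set against each other by an exact two-sided permutation test of 3 against 3 arrays, whose smallest p is 0.1, in 10 tests. The change of Abcg5 exceeded that of Abcg8 by 0.12 in HFD24 against ND (exact p = 0.6) and by 0.22 in PTFC against HFD24 (exact p = 0.3). It exceeded it by 0.26 in HFD16 against ND and by 0.34 in PTFC against ND, both at the smallest p that 3 against 3 can give, with adjusted p = 0.143. With so few arrays this test cannot reach the threshold of 0.05, so the values for Abca1 and Abcg1 are given as a description. The change of Abca1 was smaller than that of Abcg1 by 2.09 log2 units in HFD24 against ND, by 1.39 in HFD16 against ND and by 1.29 in PTFC against ND. The change of Abca1 minus that of Abcg1 was -0.70 in HFD24 against HFD16 and, in the other direction, 0.80 in PTFC against HFD24. Each of the 5 comparisons of this pair gave an exact p = 0.1 (adjusted p = 0.143), which does not pass.

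Mylip, the ligase that acts on the LDL receptor, was read by 2 probes that differed in brightness and in call. The brighter probe read 527, 505 and 1309 in ND, 901, 1122 and 818 in HFD16, 1603, 1824 and 1401 in HFD24, and 1745, 1390 and 1629 in PTFC. ND replicate 3 stood far above the other ND arrays and above every HFD16 array. HFD24 exceeded ND by 1.25 ± 0.34, or 2.39-fold (limma adjusted p = 0.0236), and PTFC exceeded ND by 1.12 ± 0.34, which did not pass (adjusted p = 0.111). The HFD24 call was lost without ND replicate 1 (1.01, adjusted p = 0.113), ND replicate 2 (0.97, 0.108), HFD24 replicate 1 (1.19, 0.0779) or HFD24 replicate 2 (1.17, 0.0660), with the scaling step as a covariate (1.17, 0.149), and with these 2 groups only (0.0624). Without ND replicate 3 it grew to 1.79 (adjusted p = 0.000235), and then HFD16 against ND (1.08, adjusted p = 0.00339) and PTFC against ND (1.66, adjusted p = 0.0015) passed as well. PTFC differed from HFD24 by -0.13 ± 0.34, with an interval from -0.86 to 0.60 (adjusted p = 0.855). The dimmer probe, at an intensity of 13 to 35 on all arrays, passed in HFD16 against ND only (1.13 ± 0.34, adjusted p = 0.0403) and kept that call under 6 of 19 alternatives, so no reading of Mylip is drawn from it.

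Whole liver holds several cell types, and in such bulk samples fewer cells of a type and less RNA per cell cannot be told apart. Markers of macrophages, like Abcg1, were higher in HFD24 than in ND. A list for monocyte-derived macrophages had 10 measured markers, Cd68 among them, and was not shown to tell these cells from Kupffer cells. Of all named genes 9.74% were higher and 7.9% lower in HFD24 against ND, and 2.93% and 3.06% in PTFC against HFD24. Of the 10 markers 9 were higher and none lower in HFD24 against ND, and 2 were lower and none higher in PTFC against HFD24. Their summed normalized intensity ranged from 7827 to 8998 in ND, from 13272 to 44095 in HFD16, from 49285 to 53587 in HFD24 and from 17329 to 31972 in PTFC. HFD16 replicate 1 was the lowest and replicate 2 the highest of their group for this sum, for the Kupffer cell sum and for the brighter Abcg1 probe. Within PTFC and HFD24 the orders differed: PTFC replicate 2, highest of its group in the macrophage sum, was lowest in Abcg1, and HFD24 replicate 1, lowest in that sum, was highest in Abcg1. Cd68, a lysosomal protein of macrophages, had a median deposited intensity of 447 in ND, 2418 in HFD16, 3708 in HFD24 and 1836 in PTFC.

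Of 11 Kupffer cell markers 10 were higher in HFD24 against ND, and in PTFC against HFD24 none passed limma, 2 having an unadjusted p under 0.05, both lower. Their sum ranged from 20766 to 50872 in ND, 52297 to 212149 in HFD16, 124047 to 189851 in HFD24 and 89472 to 107118 in PTFC. Clec4f, a lectin of Kupffer cells, had medians of 9808, 20314, 26069 and 21524 in the same order. The hepatocyte sum was 1.98e+06 to 2.06e+06 in ND and 1.82e+06 to 1.95e+06 in HFD24, lower without overlap, and 1 of 9 hepatocyte markers was lower in HFD24 against ND. Quantile normalization limits how far the very bright probes in this sum can move, so the sum does not measure the hepatocyte share. The part of these cell types in the differences of Abcg1 and of the other transporters was not tested. Endothelial markers, like Mylip, were higher in HFD24 than in ND, with 6 of 10 past the test, and ND replicate 3 had both the highest endothelial sum of its group, 41827 against 30640 and 33814, and the highest Mylip reading. In HFD16 they went apart. Of 10 endothelial markers 5 were higher than in ND, where 9.77% of all named genes were higher. Every HFD16 endothelial sum, from 42974 to 55200, exceeded that of ND replicate 3. Every HFD16 reading of the brighter Mylip probe lay below that of ND replicate 3. The part of endothelial cells in the Mylip readings was not tested. Of 9 stellate cell markers 6 were higher and 1 lower in HFD24 against ND and 3 lower in PTFC against HFD24. T and NK cell markers passed in 2 of 7 cases, all higher, in HFD24 against ND, neutrophil markers in 3 of 5, all higher, and cholangiocyte markers in 2 of 6, both lower. In PTFC against HFD24 no T and NK cell marker passed (2 had an unadjusted p under 0.05, both lower), 1 neutrophil marker was lower and 1 cholangiocyte marker was higher. In lists this short, a count of 0 or 1 says little beside the shares of all named genes given above. No marker was at 0 on any array, but Col3a1, Cftr and S100a8 were among the dimmest 25% of all probes. Col3a1 is counted among the stellate cell markers that were higher in HFD24 and lower with PTFC.

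**Figure D3:**
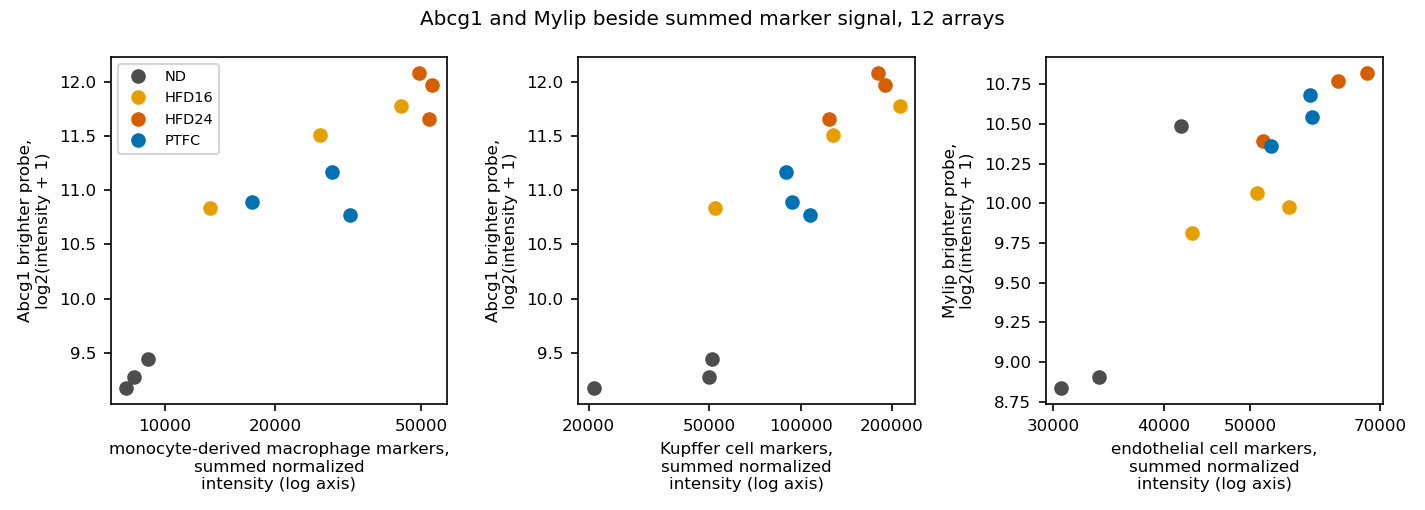
Normalized log2(intensity + 1) of the brighter Abcg1 probe against the summed normalized intensity of monocyte-derived macrophage markers (left) and Kupffer cell markers (middle), and of the brighter Mylip probe against endothelial markers (right); each point is 1 of 12 arrays, coloured by group, on log horizontal axes. ND arrays lie low and HFD24 arrays high in all 3 panels, apart from 1 ND array high in Mylip.

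Other genes of the pathway were followed as 7 lists, 88 of 100 genes having a probe, counted by the brightest probe of each. In HFD24 against ND 22 of the 88 passed, where 9.74% of all 19084 named genes were higher and 7.9% lower, with a median over all of them of -0.06. Of the enzymes that make or remove sterol ligands of LXR, 1 of 7 was higher and 2 lower, with a list median of -0.67. Ch25h, which makes 25-hydroxycholesterol, rose by 2.45 ± 0.32, or 5.47-fold (limma adjusted p = 0.000627). Its mean of 6.61 was just above the dim threshold of 6.24, and its other probe gave 1.39. With a pseudocount of 32 the difference was 1.86 (adjusted p = 0.000391). Cyp51, an enzyme of cholesterol synthesis, fell by 1.95 ± 0.26 (adjusted p = 0.00085), and Cyp7b1, which hydroxylates oxysterols, fell by 1.01 ± 0.19 (adjusted p = 0.00347). Of 14 partners and coregulators of LXR none passed limma at the adjusted threshold and 2 had an unadjusted p under 0.05, with a list median of 0.08. Nearest to the threshold were Ncoa2, Rxrb and Nrip1 (adjusted p = 0.0735, 0.0795 and 0.405). Ncoa2 passed under median centring (0.74, adjusted p = 0.0462) and without ND replicate 3 (adjusted p = 0.00647).

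Of 21 other LXR target genes 4 were higher and 2 lower in HFD24 against ND, with a list median of 0.19. The 2 lower were Lpl (-0.98), on a probe among the dimmest 25%, and Cd36 (-1.09), whose other probe gave 0.67. Lpcat3 was counted at -0.35, not past the test, while its other probe gave 2.11. Srebf1, the gene of a lipogenic transcription factor, was 3.12-fold higher, Scd2, a fatty acid desaturase, 2.85-fold higher and Cd5l, a secreted macrophage protein, 5.36-fold higher (adjusted p = 0.00234, 0.00192 and 0.00266). Among 6 genes of HDL assembly and uptake 2 were higher and 1 lower, with a median of 0.18: Scarb1, the HDL receptor, rose by 0.72 ± 0.15 and Apoa4 by 0.88 ± 0.25, and Lipg, endothelial lipase, fell by 0.69 ± 0.19 (adjusted p = 0.00576, 0.0275 and 0.0274). Among 6 lipoprotein receptors and Mylip partners 2 were higher and none lower, with a median of 0.13: Vldlr, the receptor of very low density lipoprotein, by 1.17 ± 0.31 and Ube2d1, a ubiquitin-conjugating enzyme, by 0.68 ± 0.19 (adjusted p = 0.0221 and 0.0267).

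Sterol storage and traffic genes divided, with 2 of 13 higher and 2 lower in HFD24 against ND and a median of -0.38. Gramd1b, which carries sterol from the plasma membrane to the endoplasmic reticulum, was 7.16-fold higher (2.84 ± 0.30, adjusted p = 0.000249). Nceh1, a cholesterol ester hydrolase, fell by 1.52 ± 0.20 and Stard4, a sterol carrier, by 1.50 ± 0.25 (adjusted p = 0.000816 and 0.00231). Of 21 other ABC transporters 3 were higher and 1 lower, with a median of 0.21: the drug exporters Abcb1b and Abcc4 were 2.30-fold and 2.42-fold higher (1.2 ± 0.21 and 1.27 ± 0.30 on the log2 scale), and Abcd3, a peroxisomal transporter, fell by 0.57 ± 0.14 (adjusted p = 0.00247, 0.0117 and 0.0147). Lipg, Apoa4, Vldlr, Ube2d1, Abcc4 and Abcd3 each lost the call with at least 1 array left out, the adjusted p reaching 0.0667, 0.124, 0.0896, 0.0881, 0.0518 and 0.0501, and Lipg and Abcd3 also under median centring (0.12 and 0.146). The count of 22 fell to 14 without ND replicate 1 and rose to 29 without ND replicate 3.

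In PTFC against HFD24 8 of the 88 pathway genes passed, where 2.93% of all named genes were higher and 3.06% lower. Ch25h fell by 1.86 ± 0.32, or 3.63-fold (limma adjusted p = 0.0162), the only 1 of the 7 sterol ligand enzymes to pass, the list median being -0.05. The other Ch25h probe gave -1.40. Of the 14 LXR partners and coregulators none passed limma and 1 had an unadjusted p under 0.05, with a median of -0.06. The smallest adjusted p was at Trrap (0.0993), which passed under median centring (-0.80, adjusted p = 0.0308). Tbl1xr1 was counted at 0.19 by its brightest probe, while its other probe gave -2.55. Among other LXR target genes Scd2 and Pnpla3, a lipid droplet protein, fell by 1.13 ± 0.25 and 1.24 ± 0.32 (adjusted p = 0.0251 and 0.0407). Cd36, a fatty acid uptake receptor, rose by 1.00 ± 0.19 (adjusted p = 0.0187), and the list median was -0.14. Other probes gave -0.85 for Pnpla3 and 0.37 for Cd36. Scarb1 fell by 0.65 ± 0.15, the 1 gene of 6 in HDL assembly and uptake (adjusted p = 0.0287, list median 0.10). No lipoprotein receptor or Mylip partner passed limma, 2 of 6 having an unadjusted p under 0.05 (median 0.12). Nceh1 rose by 0.84 ± 0.20, the 1 gene of 13 in sterol storage and traffic (adjusted p = 0.0339, list median -0.12).

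Among the other ABC transporters (median -0.16) Abcb1b fell by 1.01 ± 0.21 and Abca6, a transporter of unsettled substrate, rose by 0.66 ± 0.18 in PTFC against HFD24 (adjusted p = 0.0225 and 0.0473), but other probes of Abca6 gave -0.39 and 0.40. None of the 8 pathway genes passed without HFD24 replicate 1 or without PTFC replicate 3, where the adjusted p of Ch25h reached 0.0955 and of Cd36 0.109. With another HFD24 or PTFC array left out, 1 to 3 of the 88 passed. On the deposited scale Pnpla3 (-0.74, adjusted p = 0.155) and Abcb1b (-0.52, 0.167) did not pass, and under median centring Nceh1 (0.55, 0.174) and Abca6 (0.35, 0.363) did not.

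**Figure D4:**
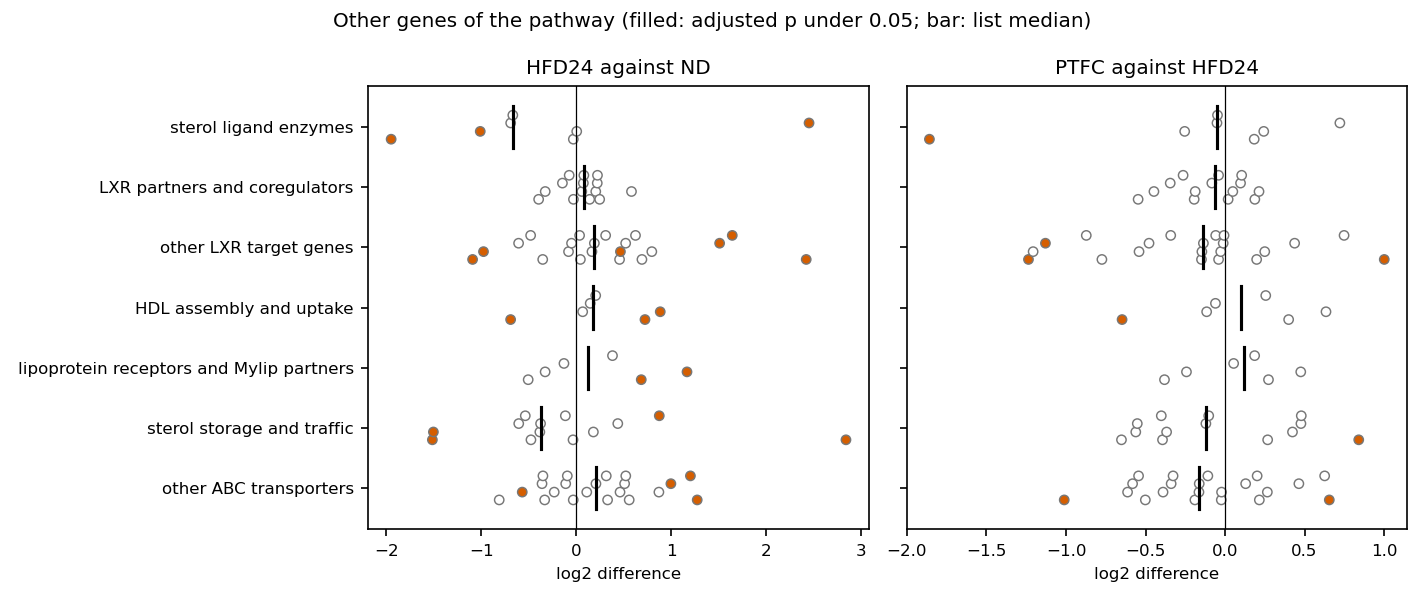
Log2 differences of the 88 measured genes of the 7 pathway lists (rows) in HFD24 against ND (left) and PTFC against HFD24 (right); each circle is 1 gene by its brightest probe, filled where the limma adjusted p is under 0.05, and the black bar is the list median. The LXR partners and coregulators have no filled circle in either panel, and the largest difference on the left is Gramd1b at 2.84.

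In the remaining comparisons, 26 of the 88 pathway genes passed in HFD16 against ND, where 9.77% of all named genes were higher and 7.81% lower, but 9 without ND replicate 1, 11 without HFD16 replicate 3, 14 without HFD16 replicate 2 and 16 without ND replicate 2. Of the 14 LXR partners and coregulators 1 passed there, Rxrb, which was lower (-0.49, limma adjusted p = 0.0354). In PTFC against ND 7 passed, where 0.917% of named genes were higher and 1.07% lower, but 3 without ND replicate 1 or PTFC replicate 3 and 4 without PTFC replicate 2. No pathway gene and none of the 8 probes passed in HFD24 against HFD16 by limma, where 13 of the 88 and 1 of the 8, the brighter Abcg1 probe, had an unadjusted p under 0.05. In that comparison 0.0114% of all probes were higher and 0.0114% lower, or 0.0157% of named genes in each direction. For Abca1 and Abcg5 all HFD24 arrays lay below all HFD16 arrays, as for 9.97% of all probes, and for the dimmer Abcg1 and the brighter Mylip probe they lay above, as for 6.24%. In PTFC against ND 2 of the 8 passed, both of Abcg1, and 5 of 8, the dimmer Mylip probe among them, had all PTFC arrays above all ND arrays, as did 9% of all probes.

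The array-to-array pattern of each gene was set beside 14646 others by Pearson's r of log2 values over the 12 arrays, as a description. The arrays share group, scaling and liver composition, and groups that stand apart set much of any r. Abca1 was most like Rab20 (0.97), Car5b (0.95) and Mlkl (0.95). Abcg1 was most like Gngt2 (0.98), Lxn (0.97) and Cxcl1 (0.97), the last a neutrophil-attracting chemokine. Abcg5 was most like Ccpg1os (0.97) and Car5b (0.96), and Abcg8 came next at 0.95. Abcg8 was itself most like Mbp (0.96), Praf2 (0.96) and Ak7 (0.95). Nr1h3 had no such near neighbour, Ccdc6 at 0.88 being its nearest, then Slc43a3 (0.86) and Calcrl (0.85). Mylip was most like Gpihbp1 (0.97) and Esm1 (0.94), both genes of endothelial cells, and Acer2 (0.94). Among the genes themselves r was 0.94 for Abca1 with Abcg5, 0.90 with Abcg8 and 0.86 with Abcg1. For Nr1h3 it was 0.77 with Mylip, 0.62 with Abcg1, 0.36 with Abca1, 0.17 with Abcg5 and 0.09 with Abcg8.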

How the data were processed

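Intensity values deposited by the authors, on a linear scale, were used for 26423 probes on 12 arrays; background correction and scaling are not given in the sources used here. Per the labels' protocols, Trizol RNA was amplified by an amino-allyl method and coupled to Cy5. Of 317076 values 0.134% were at or below 0. Each array's values were whole multiples, within 0.02, of a step between 0.675 and 1.46, as 1 scaling factor per array leaves, and the step was largest in ND.

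The platform annotation named 21876 probes with 1 symbol and left 4547 unnamed; 21850 symbols were in the RefSeq table. Values below 0 were set to 0, log2(intensity + 1) was quantile normalized over 12 arrays, and limma 3.58.1 (R 4.3.3; eBayes with a trend) was run on the means of the groups with every array in the fit. Tests were two-sided with Benjamini-Hochberg adjustment over all probes at 0.05, and the fit was tested on simulated data. Differences of dim probes depend on the value added before the log2 and on a background correction that is not given. Array number limits the precision.

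The genes, lists and markers were chosen with earlier results of these data known. Named were all 7 genes, from each list up to 3 genes of smallest p in HFD24 against ND and in PTFC against HFD24, fixed markers, and the 3 genes most like each. Same-numbered replicates did not deviate together: their correlations over probes ran from -0.29 to 0.14 in 18 pairs, so numbers were not taken to pair arrays. Alternatives were other scalings, a pseudocount of 32, no dim probes, 1 probe per gene, a replicate block, the step as a covariate, 2 groups only, no trend, and each array left out.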

Additional observations from a re-analysis of the deposited data

How the results depend on the processing

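Calls of Abca1, Abcg5, Abcg8 and the brighter Abcg1 probe in HFD24 and HFD16 against ND held under all 21 alternatives. Over the 8 probes, 769 values kept direction and call, 44 lost a call, 4 gained one and 8 changed sign, none of the 8 past the test. These were Nr1h3 in PTFC against HFD24 (-0.27 under median centring, -0.0154 to 0.0835 with an array left out), the dimmer Mylip probe in that comparison (0.37 on the deposited scale, -0.61 to 0.21 with an array left out) and in HFD24 against HFD16 (-0.51 to 0.31, the latter without HFD24 replicate 3). The cause was not tested.

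Of the 8 probes, 2 passed in PTFC against HFD24, and 1 on the deposited scale, with 1 probe per gene (6 tested) or without a trend. With the replicate block 0 passed, the Abcg1 probes having an adjusted p of 0.0609 and 0.0722. In PTFC against ND 2 passed, and 1 with 1 probe per gene, with the replicate block or with 2 groups only, and 0 with the step as a covariate (Abcg1, 1.42, adjusted p = 0.0906). With an array left out the counts ran from 5 to 7 (HFD24 against ND), 0 to 2 (PTFC against HFD24), 5 to 6 (HFD16 against ND), 1 to 3 (PTFC against ND), 0 (HFD24 against HFD16) and 5 to 6 (F test).

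Of all probes, 4348 passed in HFD24 against ND and 1133 with the step as a covariate; 1528 in PTFC against HFD24, 3101 on the deposited scale and 611 with the replicate block; 4316 in HFD16 against ND and 183 with the step. In HFD24 against HFD16, 6 passed, 2 on the deposited scale or under median centring, 0 with 2 groups only and 3 without a trend. In PTFC against ND 463 passed, 255 under median centring, 289 with the replicate block and 57 with the step. The F test gave 5176, and 2346 with the step. With an array left out the counts ran from 1981 to 6486, 8 to 2728, 1436 to 5896, 3 to 11, 56 to 662 and 2704 to 6834 in that order. Among called probes in HFD16 against ND 52.9% were higher and 28.7% on the deposited scale, and in PTFC against ND 41.5%, 67.4% on that scale and 29.0% under median centring. The comparison of Nr1h3 with Nr1h2 was not run, Nr1h2 having no probe here.

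With an array left out, the change of Abcg5 minus that of Abcg8 ran from 0.0045 to 0.26 in HFD24 against ND, and the change of Abca1 minus that of Abcg1 from -2.19 to -1.99; neither difference changed sign in any comparison. Dim probes such as the Mylip one near an intensity of 20 limit what can be read.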
